A study of Homo sapiens with 4 samples.

Results

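7 genes of NADPH supply and of the aldo-keto reductases were examined in RNA sequencing data of pancreatic cancer cells treated with neobractatin (NBT), with trametinib or with both. They were selected by symbol from the deposited gene table, as PGD, TALDO1, TKT, ME1, IDH1, AKR1B10 and AKR1C1, and make up 7 of its 16834 genes. The cells were labelled as MIA PaCa-2, an established human pancreatic ductal adenocarcinoma line, and the experiment had 4 conditions of 1 library each. The control library came from cells given neither drug. The other libraries came from cells exposed for 12 h to 1 µM NBT, to 5 µM trametinib, or to 1 µM NBT together with 5 µM trametinib, called the combination here. NBT is a plant compound isolated from Garcinia bracteata, and trametinib blocks the kinase MEK of the MAPK pathway. The time of the control cells is not given in the labels.

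NADPH is the reducing agent that cells spend on building fatty acids and sterols and on keeping glutathione and thioredoxin reduced. It is made in the cytosol mainly by the oxidative steps of the pentose phosphate pathway, by malic enzyme and by isocitrate dehydrogenase. The non-oxidative steps of the pathway exchange sugars with glycolysis and make no NADPH themselves. Aldo-keto reductases spend NADPH to reduce aldehydes and ketones to alcohols. Many of these genes are known targets of the transcription factor NRF2, which is held back by KEAP1 until electrophiles or oxidants modify KEAP1, and which binds DNA at the antioxidant response element, a short sequence with the core TGACNNNGC.

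Each condition being a single library, no value has a replicate check, and a difference between libraries also holds whatever 2 cultures of 1 condition would differ by, an amount not measured here. A gene was called higher or lower when the exact binomial test of its counts in the 2 libraries passed an adjusted limit of 0.05 and the log2 ratio was at least 1 in size, that is 2-fold. The call compares libraries, not conditions. Every interval is a 95% interval and covers counting error only. PCR copies of 1 molecule can be read more than once, which these intervals do not allow for. The libraries held 18776212 to 19614763 estimated counts, and 3 counts, taken as the detection floor, corresponded to 0.153 to 0.160 CPM, the count scaled to the library's sum.

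The libraries matched their trametinib labels but not all features of their labelled line. All 10 genes of a list of MAPK output, such as DUSP6 and SPRY4, were called lower in the trametinib and combination libraries against the control, with median log2 ratios of -3.27 and -2.77, and none was called lower with NBT. MIA PaCa-2 is known for a homozygous deletion that takes in CDKN2A and MTAP, and for low E-cadherin with high vimentin. Here CDKN2A had 2643 to 3524 counts in the 4 libraries and MTAP 815 to 1151. CDH1, the gene of E-cadherin, had 2539 to 4086 counts, and VIM, the gene of vimentin, had 202 to 500. MTAP was looked up after the CDKN2A counts had been seen. The labels also number the cell line differently from library to library and describe the depletion of bacterial ribosomal RNA. The summed level of immune, endothelial, fibroblast and acinar marker lists was at most 5.21 TPM per list and library, where TPM is a level scaled to transcript length and to the library. The highest value was that of 3 immune markers with trametinib, at 5.21 TPM against 0.76 in the control, 1.09 with NBT and 3.26 with the combination. CD3E alone had 0, 0, 55 and 29 counts in the control, NBT, trametinib and combination libraries, and the part of such cells in the results below was not tested. In bulk RNA, fewer cells of one kind and less RNA per cell cannot be told apart.

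The DNA just upstream of the genes was read first. RefSeq promoter sequences (GRCh38.p14) were held for 6 of the 7 genes, IDH1 with 2 starts, and AKR1B10 had no entry. In the 250 bases before the start, the core TGACNNNGC was searched on both strands. It was present in 10.9% of 35116 promoters of the same length, and upstream of 3 of the 6 genes, PGD, ME1 and IDH1. The matches, in capitals, are given with 40 bases on either side, because they show how the letters of the core differ between the genes.
ME1: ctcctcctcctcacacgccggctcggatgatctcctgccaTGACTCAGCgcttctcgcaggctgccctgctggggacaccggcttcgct
PGD: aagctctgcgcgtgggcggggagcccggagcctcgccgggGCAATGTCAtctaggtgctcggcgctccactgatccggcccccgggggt
IDH1: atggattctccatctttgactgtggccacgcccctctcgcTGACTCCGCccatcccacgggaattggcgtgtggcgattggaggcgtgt
The ME1 window lies at chr6:83431140-83431228 on the minus strand, and its match begins 137 bases before the start. Its letters, TGACTCAGC, were found in 0.456% of promoters on either strand, and they contain TGACTCA, the AP-1 motif, which 4.2% of promoters held. The PGD window lies at chr1:10398823-10398911 on the plus strand, with the core as TGACATTGC on the opposite strand. The IDH1 window lies at chr2:208255166-208255254 on the minus strand, 143 bases before the outermost RefSeq start, and holds TGACTCCGC. No match was found in these windows of TALDO1, TKT and AKR1C1 or before the inner start of IDH1. A match is a description of letters, and absence says only that the letters were not in that window.

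The 7 genes covered a wide range of levels. In the control library, TKT stood at 669 TPM, TALDO1 at 210 TPM, PGD at 95.5 TPM, IDH1 at 59.8 TPM, ME1 at 14.4 TPM, AKR1B10 at 1.18 TPM and AKR1C1 at 0.09 TPM. TKT ranked 181 among 16834 genes by TPM and AKR1C1 ranked 14186. The 2 reductases together amounted to 1.27 TPM in the control library, 3.0 TPM with NBT, 1.28 TPM with trametinib and 6.75 TPM in the combination, whereas PGD, TALDO1 and TKT together amounted to 974 TPM, 894 TPM, 1164 TPM and 968 TPM. The abundant enzymes of the pentose phosphate pathway thus carried nearly all the RNA of the set, and the largest ratios were in its rarest members.

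**Figure D1:**
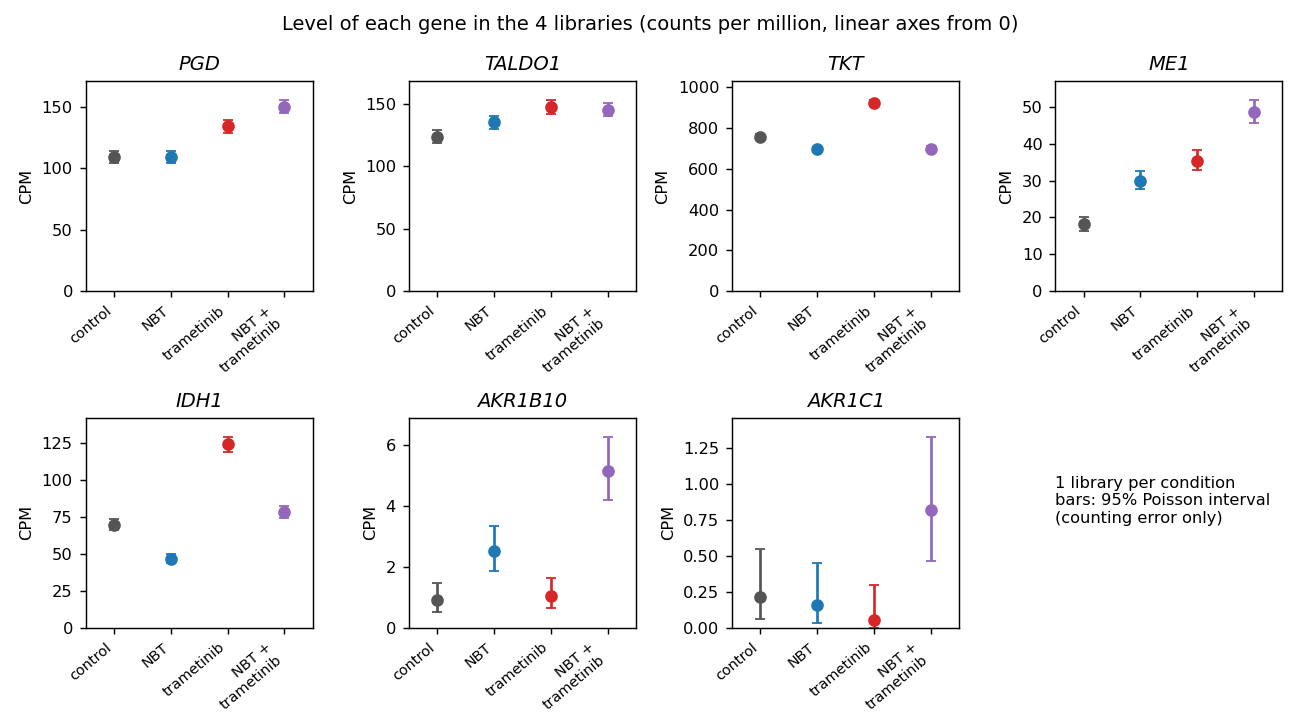
Level of each of the 7 genes in CPM (vertical axes, linear from 0) in the control, NBT, trametinib and combination libraries, 1 point per library, with bars for the 95% Poisson interval. PGD, ME1, AKR1B10 and AKR1C1 were highest in the combination library, although the interval of AKR1C1 overlapped that of the control. IDH1 and TKT were highest in the trametinib library, and TALDO1 overlapped between the trametinib and combination libraries.

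With NBT against the control, 1 of the 7 genes was called, and it was higher, where 2.61% of all genes tested were called in either direction and 1.6% were higher. With trametinib 0 of 7 were called, where 5.96% of all genes were, 3.82% higher. With the combination 3 of 7 were called, all higher, where 8.42% of all genes were, 4.73% higher. The called genes were AKR1B10 with NBT, and ME1, AKR1B10 and AKR1C1 with the combination. For the NBT, trametinib and combination libraries in turn, the 7 genes had median log2 ratios of 0.00, 0.28 and 0.46, beside medians of -0.01, 0.08 and 0.05 over all genes tested. These comparisons share the control library. Among pairs without the control, 2 of 7 genes, AKR1B10 and AKR1C1, were called higher with the combination against trametinib, where 6.11% of all genes were called and 2.56% were higher. The same 2 were called higher with the combination against NBT, where 4.36% of all genes were called and 2.38% were higher. With the test alone and no limit on the ratio, 5, 5, 7, 6 and 6 of the 7 genes passed in these 5 comparisons, where 35.5%, 42.7%, 49.6%, 45.5% and 37.4% of all genes did. With a coefficient of variation of 0.2 set for the spread of cultures, ME1 and AKR1B10 remained called for the combination against the control and AKR1B10 for the combination against trametinib, where 3.37% and 1.85% of all genes were called, and no other call of the 7 genes was left. At 0.4, none was left.

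**Figure D2:**
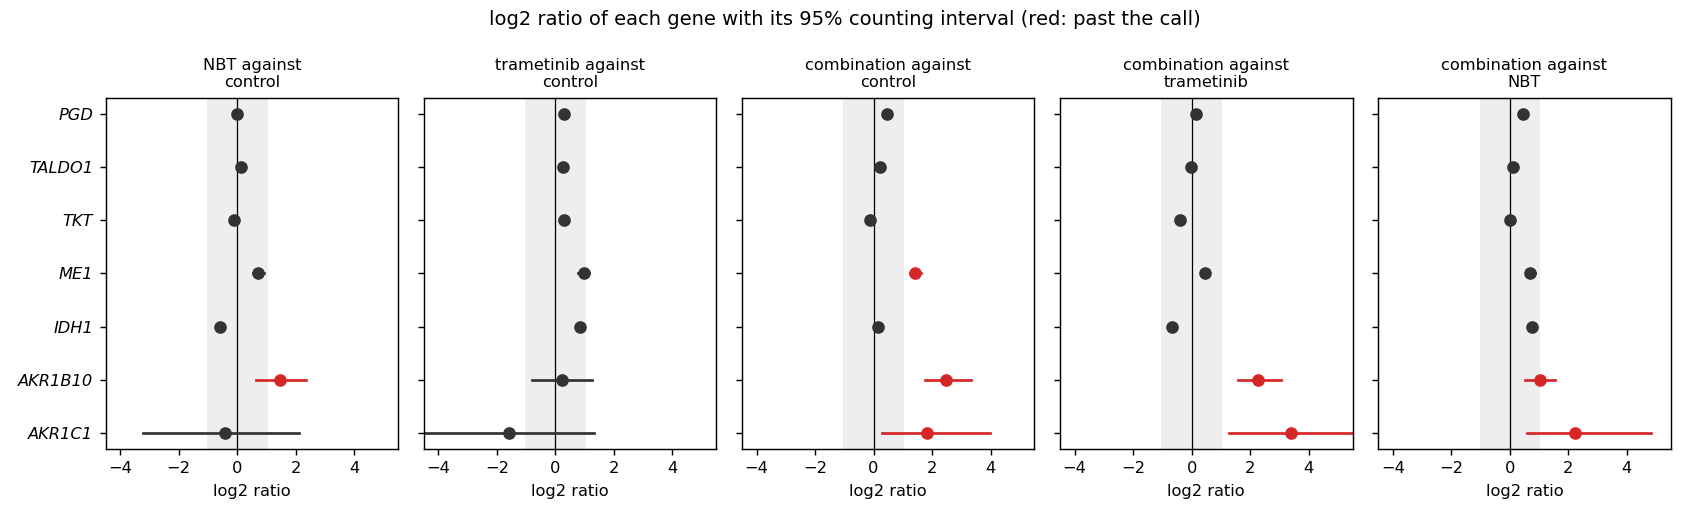
log2 ratio of each of the 7 genes (horizontal axes) in 5 comparisons of libraries, with 95% counting intervals as lines, the span under 2-fold shaded and called genes in red. The axes end at -4.5 and 5.5, so that 2 intervals of AKR1C1 run past them. AKR1B10 passed the call in 4 of the 5 comparisons, and PGD, TALDO1, TKT and IDH1 in none.

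PGD encodes 6-phosphogluconate dehydrogenase, the second NADPH-making step of the pentose phosphate pathway. The gene lies at chr1:10399064-10420511 on the plus strand (GRCh38.p14) and its matched transcript has 13 exons. PGD had 2043 counts in the control library, 2122 with NBT, 2539 with trametinib and 2940 in the combination, or 109, 109, 134 and 150 CPM. The control and NBT libraries were not separable by counting error, and the other libraries stood above them in steps whose intervals did not overlap. The log2 ratio to control was 0.00 with NBT (-0.08 to 0.09), 0.30 with trametinib (0.22 to 0.38) and 0.46 in the combination (0.38 to 0.54), none of which was called. With trametinib already present, adding NBT went with a log2 ratio of 0.16 (0.08 to 0.24).

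2 other genes of the oxidative steps gave ratios above 0. PGLS, the lactonase that makes 6-phosphogluconate, had 952, 1288, 1403 and 1608 counts in the control, NBT, trametinib and combination libraries. Its log2 ratios to control were 0.39, 0.55 and 0.69. H6PD, the enzyme of the endoplasmic reticulum that performs both early steps, had 435, 597, 538 and 685 counts, with log2 ratios of 0.41, 0.29 and 0.59. PGD, PGLS and H6PD had log2 ratios above 0 in each of the 5 comparisons, and 0 of 3 were called in any of them. For NBT against the control, however, PGD had 0.00 (-0.08 to 0.09), and -0.06 with TPM, so its sign was not settled. The median of the 3 genes with the combination against the control was 0.59, beside 0.05 for all genes.

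TALDO1 and TKT encode transaldolase and transketolase, the enzymes that exchange carbon units in the non-oxidative steps. TALDO1 lies at chr11:747464-765012 on the plus strand with 8 exons, and TKT at chr3:53224712-53256022 on the minus strand with 15 exons. TALDO1 had 2324, 2626, 2794 and 2848 counts in the control, NBT, trametinib and combination libraries, or 124, 135, 147 and 145 CPM. It was lowest in the control, and each neighbouring pair among the 3 treated libraries overlapped. Its log2 ratios to control were 0.13 (0.05 to 0.21), 0.25 (0.17 to 0.33) and 0.23 (0.15 to 0.31).

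TKT, the most abundant of the set, was highest with trametinib alone. It had 14241, 13538, 17503 and 13699 counts in the same order, or 758, 696, 924 and 698 CPM. The NBT and combination libraries were not separable by counting error, with a log2 ratio between them of 0.00 (-0.03 to 0.04). The control stood above both and trametinib above all. The log2 ratio was 0.28 for trametinib against control (0.25 to 0.32) and -0.40 for the combination against trametinib (-0.44 to -0.37), and neither was called. Of the remaining non-oxidative genes in the table, RPIA, which interconverts pentose phosphates, had 470, 398, 406 and 281 counts and RPE, which also does so, had 1030, 1086, 1155 and 1081. TKTL2 had at most 1 count, and 0 of the 5 genes of these steps were called in any comparison.

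Reads of TKT were divided among 3 transcripts in the deposited table. One of them, with a coding length of 1896 bases against 1872 in another annotated form, took 13.4% of the counts of the gene in the control, 3.90% with NBT and 9.99% with trametinib. With the combination it was listed at 0 of 13698 counts, for which the upper limit of the 95% exact binomial interval is 0.0269%. The largest form, a predicted RefSeq model, took 74.6%, 82.4%, 79.0% and 88.2% in the same order, and the form with 1872 coding bases 12.0%, 13.7%, 11% and 11.8%. The largest form held its greatest shares in the 2 libraries in which the form with 1896 coding bases held its smallest. Transcript counts come from dividing reads that fit several transcripts, and the error of that division is not covered by a counting interval.

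ME1 encodes the cytosolic malic enzyme, which turns malate into pyruvate and makes NADPH. It lies at chr6:83210402-83431051 on the minus strand and has 14 exons. ME1 had 341 counts in the control library, 583 with NBT, 671 with trametinib and 955 in the combination, or 18.2, 30.0, 35.4 and 48.7 CPM. No neighbouring intervals overlapped, and each treated library stood above the control. ME1 rose with the combination, with a log2 ratio of 1.42 (1.24 to 1.61), which is 2.68-fold (2.37 to 3.04). The single drugs gave log2 ratios under the limit, 0.72 with NBT (0.53 to 0.92) and 0.96 with trametinib (0.77 to 1.16), the latter with an interval that reached past 1.

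ME1 was the 1 malic enzyme that was called. ME2, a mitochondrial malic enzyme that uses NAD, had 1105, 1301, 1173 and 1552 counts in the control, NBT, trametinib and combination libraries. Its log2 ratios to control were 0.19, 0.07 and 0.43. ME3, the mitochondrial NADP-linked form, had 0, 0, 0 and 1 counts, all under the floor of 3. ME1 counts were whole numbers in 4 of 4 libraries, so no division of its reads between genes was seen. Its matched transcript shared no 50-base window with another gene. A predicted RefSeq model, which took 46.2% to 58.7% of the ME1 counts, was not searched. The window search alone does not settle the point, because TKT also shared none and had whole counts in 0 of 4 libraries.

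IDH1 encodes the cytosolic isocitrate dehydrogenase that makes NADPH from isocitrate. It lies at chr2:208236227-208255071 on the minus strand, and each of its 3 annotated transcripts has 10 exons and the same coding length of 1245 bases. IDH1 had 1309 counts in the control library, 905 with NBT, 2356 with trametinib and 1535 in the combination, or 69.7, 46.6, 124 and 78.3 CPM. It was lowest with NBT and highest with trametinib, the combination lay between them, and no neighbouring intervals overlapped.

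The 2 drugs went with ratios of opposite sign for IDH1, none of which was called. Against the control the log2 ratio was -0.58 with NBT (-0.71 to -0.46), 0.83 with trametinib (0.74 to 0.93) and 0.17 in the combination (0.06 to 0.27). In the pair of libraries that both held trametinib, the combination stood at -0.67 (-0.76 to -0.57). In the pair that both held NBT, it stood at 0.75 (0.63 to 0.87). The NBT contrasts with and without trametinib come from separate pairs of libraries, and they differed by -0.09 (-0.24 to 0.07), an interval that held 0. IDH2, the mitochondrial NADP-linked enzyme, had 714, 672, 989 and 705 counts, with log2 ratios to control of -0.14, 0.46 and -0.08. The 3 subunits of the NAD-linked enzyme of the citric acid cycle, IDH3A, IDH3B and IDH3G, had log2 ratios to control between -0.23 and -0.20 with NBT and between -0.54 and -0.06 with the combination. With trametinib they had -0.35, 0.01 and 0.19, and 0 of 3 were called in any of these.

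The transcripts of IDH1 differ in where they start. The first start is at position 208255133 of chromosome 2, the second at 208254458 and the third at 208254322 (GENCODE v29, GRCh38, minus strand), so that the later ones lie inside the first gene model. The third start took 9 of 1309 counts in the control (0.69%, 0.31 to 1.30%, exact binomial interval), 109 of 905 with NBT (12.0%, 9.99 to 14.3%), 47 of 2356 with trametinib (1.99%, 1.47 to 2.64%) and 181 of 1535 in the combination (11.8%, 10.2 to 13.5%). Both libraries with NBT lay above both without it, and the intervals did not overlap between them. The first start took 1300, 762, 2263 and 1324 counts, or 99.3%, 84.2%, 96.1% and 86.3%. The second start took 0, 34, 46 and 30 counts, or 0%, 3.76%, 1.95% and 1.95%. Its shares with trametinib and with the combination were thus alike, unlike those of the third start. The 3 forms hold the same coding length and are listed with different starts. As for TKT, the shares rest on the division of shared reads, and the use of each start was not tested.

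**Figure D3:**
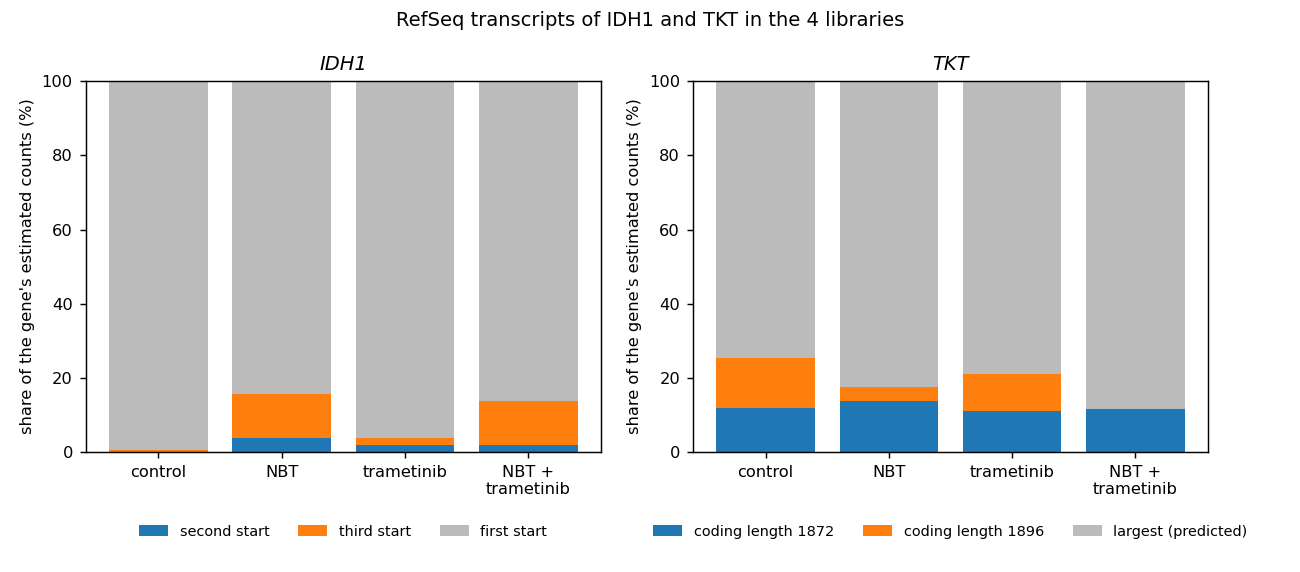
Share of the estimated counts of IDH1 (left) and TKT (right) given to each of their 3 transcripts (vertical axes, percent), 1 bar per library. The third IDH1 start held 12.0% and 11.8% in the libraries with NBT and 0.69% and 1.99% in those without, and the TKT form with 1896 coding bases held 13.4% in the control and was listed at 0 with the combination.

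AKR1B10 encodes an aldo-keto reductase that reduces aliphatic and aromatic aldehydes and retinal, known from the intestine and from several carcinomas. It lies at chr7:134527567-134541412 on the plus strand, with 10 exons. AKR1B10 had 17 counts in the control library, 49 with NBT, 20 with trametinib and 101 in the combination, or 0.905, 2.52, 1.06 and 5.15 CPM. The control and trametinib libraries overlapped within counting error, NBT stood above both and the combination above all.

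Counts of AKR1B10 rose in both libraries that held NBT. The log2 ratio to control was 1.45 with NBT (0.66 to 2.37), which is 2.73-fold (1.58 to 5.16), and 2.47 with the combination (1.76 to 3.34), which is 5.55-fold (3.38 to 10.1). It was 0.21 with trametinib (-0.79 to 1.24), which was not called. Adding NBT to trametinib went with a log2 ratio of 2.26 (1.58 to 3.06). The combination exceeded NBT alone by 1.02 (0.52 to 1.55), just past the limit of 1, and that call was lost when the libraries were scaled by TMM (0.99) or by DESeq2 (just under 1), or when 5 reads were added (0.96).

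A paralog lies beside AKR1B10 on the chromosome. AKR1B15, which is 86.8% identical to AKR1B10 in coding sequence by edit distance, had 253, 243, 285 and 239 counts in the control, NBT, trametinib and combination libraries. Its log2 ratios to control were -0.11, 0.16 and -0.14, none called. Of the 50-base windows of the coding sequence of AKR1B10, 28.4% also occurred in another gene, chiefly AKR1B15 and the pseudogene AKR1B10P1. The estimated counts of AKR1B10 were whole in 0 of 4 libraries, so its reads were divided with other genes or left uncertain by the counting. Summed with AKR1B15, the estimated counts were 269.93, 291.53, 304.24 and 339.92 in the control, NBT, trametinib and combination libraries. In that sum, mostly AKR1B15, NBT lay below trametinib and the combination was highest, and how far the ratios of AKR1B10 depend on the division of reads within the pair was not tested. AKR1B1, the aldose reductase that turns glucose into sorbitol, had 1531, 1893, 1915 and 2432 counts and log2 ratios to control of 0.26, 0.31 and 0.60, none called.

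AKR1C1 encodes a hydroxysteroid dehydrogenase that inactivates progesterone, and lies at chr10:4963415-4983283 on the plus strand, with 9 exons in its annotated transcript. It was near the detection floor, with 4 counts in the control library, 3 with NBT, 1 with trametinib and 16 in the combination, or 0.213, 0.154, 0.0528 and 0.816 CPM. Neighbouring libraries in the order of levels overlapped throughout. The annotated transcript took 2, 3, 1 and 4 rounded counts in the control, NBT, trametinib and combination libraries. A predicted RefSeq model took 2, 0, 0 and 12, so most counts of the combination went to that model. This split rests on the division of shared reads. AKR1C1 was called higher with the combination against the control, with a log2 ratio of 1.81 (0.30 to 3.98), or 3.51-fold (1.24 to 15.7). Scaled to the libraries and with 0.5 reads added, the ratio was 4.67 against NBT alone (1.51 to 28.3) and 10.6 against trametinib alone (2.40 to 648), log2 values of 2.22 and 3.41. With 5 reads added the log2 ratios were 1.16 against the control, 1.38 against NBT and 1.76 against trametinib, and with TPM they were 1.51, 1.95 and 2.17, so the size of the ratio depended on the setting.

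The reads of AKR1C1 are hard to tell from those of AKR1C2. Their coding sequences, each 972 bases long, differ at 19 positions, and 54.5% of the 50-base windows of the coding sequence of AKR1C1 also occur in another gene, mostly AKR1C2. Over its whole annotated transcript the share was 28.7%, and the predicted model was not searched. The stretch of coding bases 43 to 162, which holds the most differences of any stretch of 120 bases, is shown with the differing bases in capitals, because a read can be assigned only where such bases fall.
AKR1C1: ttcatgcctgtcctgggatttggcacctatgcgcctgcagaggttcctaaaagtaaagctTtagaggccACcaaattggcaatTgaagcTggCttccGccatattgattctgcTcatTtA
AKR1C2: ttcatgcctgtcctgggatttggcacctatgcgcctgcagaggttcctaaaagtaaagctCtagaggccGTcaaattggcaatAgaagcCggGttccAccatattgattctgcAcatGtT
The estimated counts of AKR1C1, AKR1C2 and AKR1C3 summed to exactly whole numbers, 6, 6, 2 and 18 in the control, NBT, trametinib and combination libraries. AKR1C2 took 1, 2, 1 and 0 rounded counts and AKR1C3 took 1, 1, 0 and 2. The 3 genes together thus held their most counts with the combination, whichever of the 3 the shared reads belonged to.

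Of the 12 other aldo-keto reductases in the table, 0 of 11 tested were called with NBT, 0 of 11 with trametinib and 1 of 12 in the combination. These counts stand beside 2.61%, 5.96% and 8.42% of all genes, and in so short a list they are near that background. The gene called was AKR1D1, the bile acid and steroid 5-beta-reductase, with 19 counts against 6 in the control and a log2 ratio of 1.52. The median of these 12 was 0.14 with the combination. AKR1C4 and AKR7L were not analysed here.

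16 other genes were listed with NADPH supply. Some of them make no NADPH themselves, such as RPIA, RPE and TKTL2 of the non-oxidative steps and ME2, which uses NAD. Of the 16, 1 of 15 tested was called with NBT, 0 of 14 with trametinib and 2 of 15 in the combination. All were higher, where 2.61%, 5.96% and 8.42% of all genes were called. In a list of this length these counts are near that background. MTHFD2, the mitochondrial folate enzyme, had 3109, 8484, 3715 and 9836 counts in the control, NBT, trametinib and combination libraries. It rose with NBT by 1.40 and with the combination by 1.60 on the log2 scale, and had 0.24 with trametinib. ALDH1L2, which makes NADPH in mitochondria from formyl-tetrahydrofolate, had 7, 14, 19 and 22 counts in the same order. It was called with the combination, at a log2 ratio of 1.52 (0.31 to 3.06). With trametinib alone the log2 ratio was 1.37 (0.11 to 2.92), which was not called. The medians over the genes tested were 0.39, 0.12 and 0.43 in the 3 comparisons with the control.

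Among 9 other reductases that spend NADPH, 1 was called with NBT, 1 with trametinib and 2 in the combination, all higher. These counts stand beside 2.61%, 5.96% and 8.42% of all genes, and in so short a list they are near that background. The called genes were TXNRD1 and BLVRB. TXNRD1, the thioredoxin reductase, had 3494, 8589, 4796 and 14462 counts and log2 ratios to control of 1.25 with NBT (called), 0.44 with trametinib and 1.99 in the combination (called). BLVRB, a biliverdin and flavin reductase, had 491, 785, 1144 and 1566 counts, with log2 ratios of 0.63, 1.21 (called) and 1.61 (called). NQO1, the quinone reductase, had 0.56, 0.54 and 0.81, none called. All 3 were highest in the combination library, as were PGD, ME1 and AKR1B10.

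12 other NRF2 targets were listed, of which TXNRD1, NQO1 and GSR are also among the reductases above. Of the 12, 6 were called higher with NBT, 2 higher and 1 lower with trametinib, and 8 higher in the combination. Over all genes, 2.61%, 5.96% and 8.42% were called in either direction, and 1.6%, 3.82% and 4.73% were higher. Those called with NBT were TXNRD1, GCLM, GCLC, SLC7A11, HMOX1 and OSGIN1, and the combination added SRXN1 and UGDH. SLC7A11 and HMOX1 were the 2 called higher with trametinib and ABCC3 the 1 called lower. The median log2 ratios were 1.02, 0.45 and 1.96, beside 0.00, 0.28 and 0.46 for the 7 genes described here. With the combination, the glutathione genes GCLM and GCLC had 2.51 and 2.91, and at the low end of the list EPHX1 had -0.10 and ABCC3 had -0.32. The 7 genes also ran over a wide range there, from 2.47 for AKR1B10 and 1.81 for AKR1C1 to 0.46 for PGD and -0.12 for TKT.

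**Figure D4:**
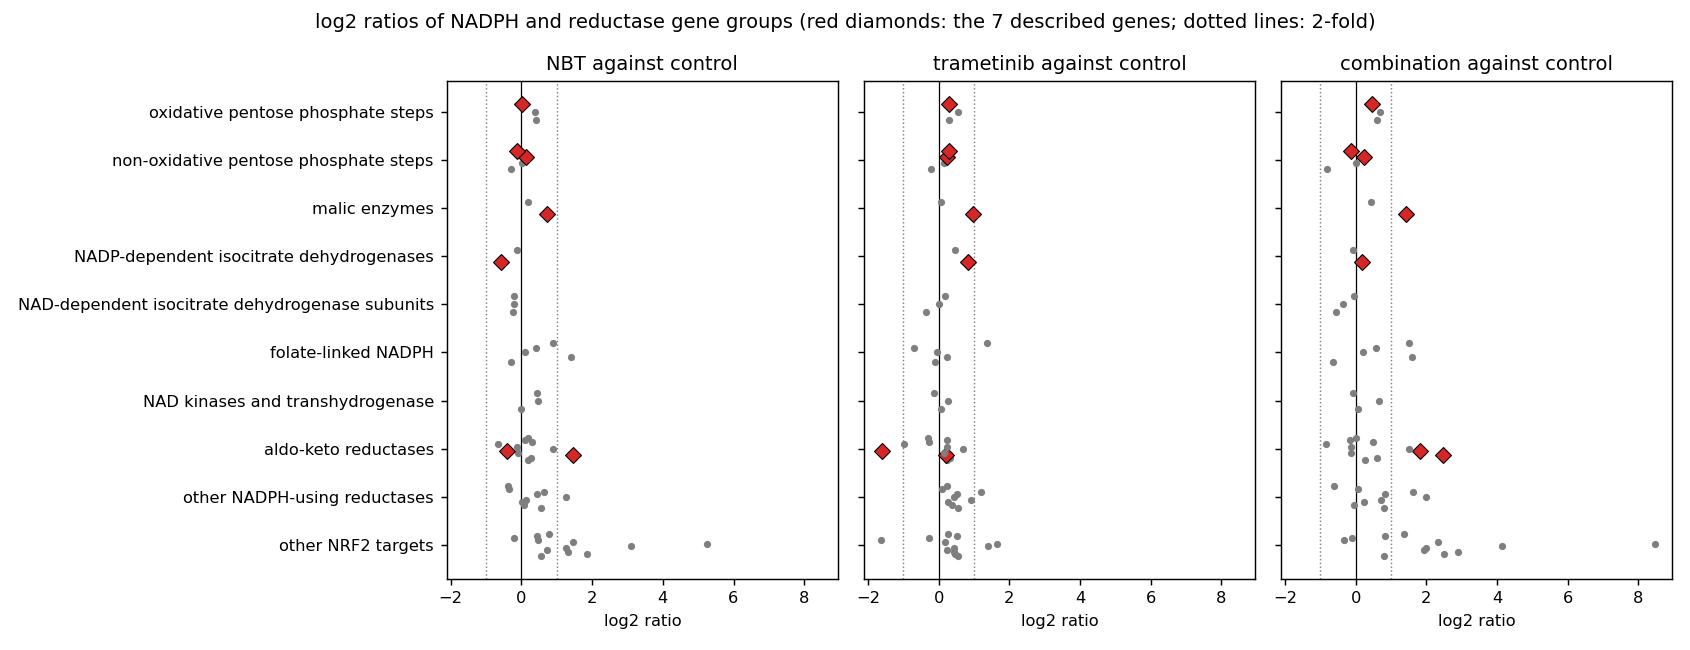
log2 ratios to control (horizontal axes) of gene groups of NADPH supply and use in the NBT, trametinib and combination libraries, 1 point per gene with at least 10 counts in 1 library, with the 7 genes as red diamonds and 2-fold as dotted lines. ME1, AKR1B10 and AKR1C1 lay past 2-fold with the combination, and the pentose phosphate genes lay inside it throughout.

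The combination was compared with the sum of the log2 ratios of the single drugs, for genes with at least 50 counts in 1 library. This left out AKR1C1. Of the other 6 genes, 0 departed from the sum by 1 or more, where 2.33% of 11367 genes did. AKR1B10 lay 0.81 above the sum, with an interval from -0.23 to 1.85 that held 0. It reached 50 counts only in the combination library, at 101 against 49 with NBT. Its place above the sum thus rests on the count that admitted it, and no conclusion is drawn from it. PGD lay 0.16 above (0.04 to 0.27). ME1 lay at -0.26 (-0.50 to -0.02), TKT at -0.28 (-0.33 to -0.23), TALDO1 at -0.15 (-0.26 to -0.04) and IDH1 at -0.09, as above, beside a median of -0.03 over all genes with quartiles of -0.22 and 0.15. ME1 and TKT were the members below the lower quartile, and PGD lay above the upper one. AKR1B10 also lay above it, with the limit just given.

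**Figure D5:**
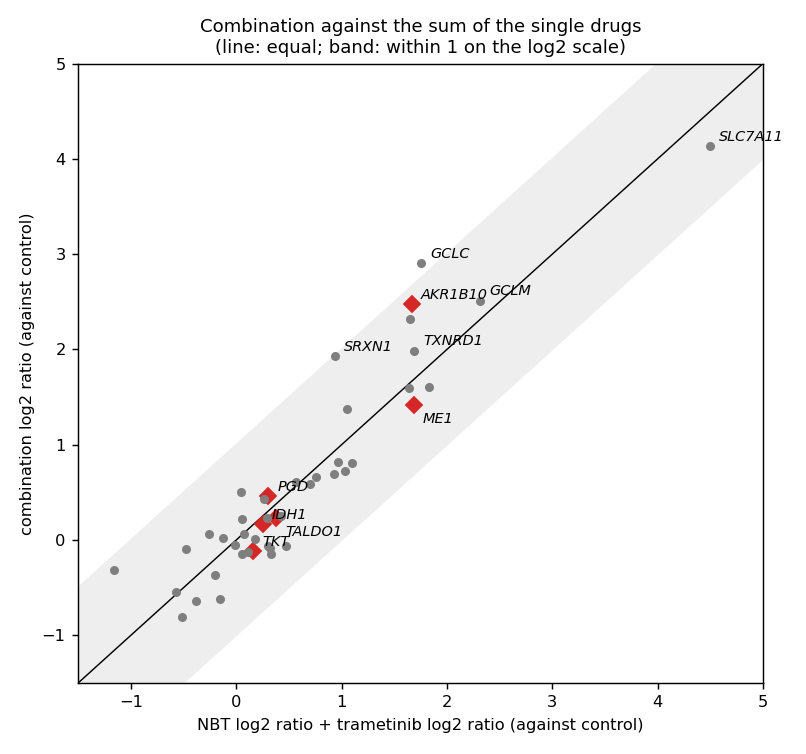
log2 ratio of the combination to control (vertical axis) against the sum of the log2 ratios of NBT and trametinib to control (horizontal axis), for genes of the described groups with at least 50 counts in 1 library, the line marking equality and the band a difference of 1. HMOX1 lies outside the axes and is not drawn. The 6 genes with enough counts, as red diamonds, lay within the band. AKR1B10, which had enough counts only in the combination library, lay 0.81 above the line.

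The pattern over the 3 comparisons with the control differed among the 7 genes. Likeness was taken as the Euclidean distance of the 3 log2 ratios, over the 4 libraries and 9986 genes with at least 100 counts in each. PGD, TALDO1 and TKT had patterns that many genes had, with 577, 1392 and 916 genes within a distance of 0.25. ME1 had 10 such genes and IDH1 had 9. The nearest to ME1 were STX11 at 0.05, ULK1 at 0.07 and KLHL24 at 0.11. The nearest to IDH1 were ANO8 at 0.14, SHFL at 0.17 and C5orf38 at 0.18. AKR1B10 and AKR1C1 did not reach 100 counts in each library themselves. AKR1B10 had 0 genes within 0.25, and GCLM at 0.47, NIBAN1 at 0.48 and MAP1LC3B at 0.50 were nearest. AKR1C1 had 0 as well, with KLF2 nearest at 1.29. Within the set, PGD and TALDO1 were the closest pair at 0.27, whereas IDH1 and AKR1B10 were the farthest apart at 3.14.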

How the data were processed

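For each of 4 libraries the authors deposited estimated (expected) counts, TPM and FPKM values per gene and per RefSeq transcript. The submitters' processing notes name Bowtie2 2.2.5, RSEM 1.2.8 and hg38, with no role stated. Deposited estimated counts are not normalized, and reads that fit several genes or transcripts are divided between them. Of all genes, 46.1% had whole counts in the 4 libraries (tolerance 0.005). Deposited TPM is scaled to length and library. Deposited FPKM, scaled to length and mapped fragments, was not used for results. Filters applied before deposit are not given in the sources used here.

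Counts were rounded and scaled to each library's sum of 18776212 to 19614763, which sets the precision. log2 ratios had 0.5 reads added. The call used the exact two-sided binomial test with Benjamini-Hochberg adjustment over genes with 1 count or more in the pair, at 0.05, with a log2 ratio of at least 1, after the limits of the study. With 1 library per condition no p-value is given. Ratio intervals are Clopper-Pearson and CPM intervals exact Poisson. Alternatives were edgeR's TMM factors, DESeq2's size factors, TPM with 0.1 added, 5 added reads, transcript sums, a minimum of 10 counts, log2 limits of 2 and none, and edgeR's exact test with a coefficient of variation set to 0.2 or 0.4. The calling steps were run on simulated counts that had no spread between cultures. Genes with as few counts as AKR1C1 and AKR1B10 were not among those changed, so the run says nothing about their calls. Gene positions and promoters came from RefSeq (GRCh38.p14), matched by gene number for 99.2% of genes, and transcript starts, exons and coding sequences from GENCODE v29. Genes named were the 7 members, called genes of the other lists, paralogs of members and the 3 genes nearest to each member. For comparison, uncalled list genes such as PGLS, H6PD, RPIA, RPE, IDH3 subunits and NQO1 are also given. Some list genes are not reported here. The members and lists were chosen with earlier results of these data known. Python 3.11.15 with numpy 2.4.6, pandas 2.3.3 and scipy 1.17.1, and R 4.3.3 with DESeq2 1.42.0 and edgeR 4.0.16, were used.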

Additional observations from a re-analysis of the deposited data

How the results depend on the processing

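The count of the 7 genes called was 1 for NBT against control, 0 for trametinib, 3 for the combination, 2 for the combination against trametinib and 2 for the combination against NBT. With no log2 limit these became 5, 5, 7, 6 and 6, where the test alone passed 35.5% to 49.6% of all genes. With a limit of 2 the count was 0 for NBT, 1 for the combination against control (AKR1B10) and 1 for the combination against NBT (AKR1C1), where 0.73%, 2.47% and 1.54% of all genes were called. With TMM factors, with DESeq2's size factors and with 5 added reads, the combination against NBT kept 1 call, AKR1C1. With a coefficient of variation between cultures set to 0.2, the counts were 0 for NBT, 2 for the combination against control (ME1 and AKR1B10), 1 against trametinib (AKR1B10) and 0 against NBT, where 0.434%, 3.37%, 1.85% and 1.26% of all genes were called. At 0.4 they were 0 in each of these, where 0.0252%, 0.314%, 0.0857% and 0.08% of all genes were. Departures from the sum of the single drugs were 0 of 6 genes under each alternative run. Of 175 log2 ratios recomputed, 172 kept their side of the limit and 3 lost the call, all 3 of them AKR1B10 for the combination against NBT. Uncalled ratios near 0 changed sign in some settings. These were PGD for NBT against control, TALDO1 for the combination against trametinib and TKT for the combination against NBT. Of the other scalings, TMM moved the median of all genes the most, by -0.07 on the log2 scale for trametinib against control. No paired analysis was possible because each condition had 1 library and the labels give no replicate numbers, and for the same reason no library could be left out. With 5 reads added the log2 ratio of AKR1C1 went from 3.41 to 1.76 for the combination against trametinib. Depth limits AKR1C1, with 1 to 16 counts, and AKR1B10, with 17 to 101.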
